A study of Mus musculus with 6 samples.

Results

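The genes described here are the cyclins, cyclin-dependent kinases (CDKs) and CDK inhibitors that act in the G1 phase of the cell cycle, as read in the RNA of activated B cells of mice with lupus-like disease. They are 10 genes chosen by name (Ccnd1, Ccnd2, Ccnd3, Ccne1, Ccne2, Cdk4, Cdk6, Cdkn1a, Cdkn1b and Cdkn2c) of 41669 genes in the deposited table. All 10 passed the filter on low counts, which left 12172 genes for testing. NZB/W F1 mice are a hybrid strain that develops autoantibodies and a lupus-like disease, and all 6 animals were at its late stage. Spleen B cells, picked by positive selection on a column, were then stimulated for 24 h with CpG DNA, which signals through Toll-like receptor 9 and drives B cells into division. The groups were 3 female and 3 male mice, 1 library per mouse. Both groups had the same strain, stage and CpG culture, no unstimulated or healthy animals were analysed here, and no age of the mice was at hand. Levels are given as CPM, the estimated counts of a gene scaled by its library's total.

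A resting B cell must pass a restriction point in G1 before it copies its DNA. D cyclins (Ccnd1, Ccnd2, Ccnd3) bind CDK4 or CDK6 and begin the phosphorylation of the retinoblastoma protein, which releases E2F transcription factors, and E cyclins (Ccne1, Ccne2), themselves E2F targets, bind CDK2 and complete it. Inhibitors hold this step back: Cdkn1a (p21) and Cdkn1b (p27) belong to the CIP/KIP family and act on CDK2 complexes, and Cdkn2c (p18) belongs to the INK4 family and binds CDK4 and CDK6. B cells are known to rely on cyclins D2 and D3 rather than D1. Cdkn1a is a classic target of p53, Cdk4 of Myc, and Cdkn2c has been studied as a lupus susceptibility candidate in related mouse strains.

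RefSeq promoter sequence (GRCm38.p6) was at hand for 7 of the 10 genes: Ccnd3, Ccne1, Cdk4, Cdk6, Cdkn1a, Cdkn1b and Cdkn2c. The windows were the 250 bases before each annotated start, and the same windows of 32851 starts served as background. Both starts of Cdkn1a and that of Cdk4 are shown, since Cdkn1a had the highest coefficient of variation over the 6 mice (102%) and Cdk4 the highest (40.6%) of the 7 members with a mean above 10 CPM. Capitals mark matches, on either strand, to the E-box CACGTG, to the GC box GGGCGG or to the p53-binding decamer.
Cdkn1a upstream start (chr17:29090729-29090978, plus strand): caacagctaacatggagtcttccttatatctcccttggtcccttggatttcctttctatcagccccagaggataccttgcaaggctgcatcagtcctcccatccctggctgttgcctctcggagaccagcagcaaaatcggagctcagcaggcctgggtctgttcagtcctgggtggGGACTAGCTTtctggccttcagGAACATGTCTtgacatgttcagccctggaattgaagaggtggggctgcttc
Cdkn1a downstream start (chr17:29093519-29093768, plus strand): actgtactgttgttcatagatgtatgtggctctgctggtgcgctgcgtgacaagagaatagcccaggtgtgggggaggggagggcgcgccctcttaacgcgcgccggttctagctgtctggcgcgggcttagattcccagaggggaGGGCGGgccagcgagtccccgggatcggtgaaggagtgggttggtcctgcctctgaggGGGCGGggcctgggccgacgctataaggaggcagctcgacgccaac
Cdk4 (chr10:127063285-127063534, plus strand): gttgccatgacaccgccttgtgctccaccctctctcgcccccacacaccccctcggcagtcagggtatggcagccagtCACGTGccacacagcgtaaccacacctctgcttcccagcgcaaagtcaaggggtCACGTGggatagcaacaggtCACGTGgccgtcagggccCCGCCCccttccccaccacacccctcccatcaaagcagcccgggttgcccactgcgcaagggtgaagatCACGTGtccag
The upstream Cdkn1a window held 2 separate matches to the p53-binding decamer, beginning 73 and 51 bases before the start, and the downstream window held 2 GC boxes. At least 1 such decamer was found in 7.13% of all windows and at least 2 in 0.259%. The Cdk4 window held 4 E-boxes, beginning 172, 118, 98 and 11 bases before the start, and 1 GC box. An E-box was found in 6.02% of all windows and 4 or more in 0.0213%, and a GC box in 32.74%. The core E2F motifs TTTCCCGC, TTTGGCGC, TTTCGCGC and TTTGCCGC, searched on both strands, were found in none of the 10 windows of these 7 genes and in 1.86% of all windows. These matches describe the letters only.

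The libraries held 24089561 to 35659883 estimated counts, and 3 counts, the floor used for detection, came to 0.0841 to 0.125 CPM. Xist and the Y-linked genes matched the labelled sex in 6 of 6 libraries. The 8 B cell markers summed to 2768 to 3504 CPM in the females and 3228 to 3563 CPM in males. The 9 T cell markers summed to 3.73 to 7.62 CPM over all libraries, with Cd5 at 0 in all 6, and the 6 neutrophil markers to at most 0.371 CPM, with Camp, Ltf and Elane at 0. The 10 macrophage and monocyte markers summed to 4.48 to 9.78 CPM in the females and 2.15 to 3.04 CPM in males. The 7 plasma cell markers summed to 279 to 488 CPM in the females and 275 to 318 CPM in males, with Tnfrsf17 at 0 in all 6. Within this sum Igj had 37.7, 48.4 and 48.2 CPM in the females and 17.1, 17.0 and 18.3 CPM in males. Prdm1 had 22.1, 61.5 and 22.9 CPM in the females and 11.7, 12.8 and 12.9 CPM in males. Both were higher in females without overlap, as were 2.69% of all tested genes, while Xbp1, Irf4, Sdc1 and Mzb1 overlapped. The part of these other cells in the results below was not tested. In cultured cells sequenced in bulk, fewer cells of a kind and less RNA per cell cannot be told apart. Female replicate 3 stood apart: its factor from trimmed mean of M values (TMM) scaling was 0.816, against 0.993 to 1.07 in the others, and on CPM it had the lowest value of the 6 libraries in 51.4% of all tested genes. Levels also fell with the GC content of the transcript from 40% GC upwards in every library. The median level of tested genes was 10.2 to 11.7 CPM per kilobase (kb) of transcript at 40 to 45% GC, 1.29 to 3.06 at 50 to 55% and 0.295 to 1.21 from 55% upwards. Below 40% GC, where Ccne2 lies, it was 9.28 to 12.3, less than at 40 to 45% in every library but female replicate 3. Members with unlike GC content are therefore set side by side below as deposited values, and how much of a gap between them comes with base composition was not tested.

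**Figure D1:**
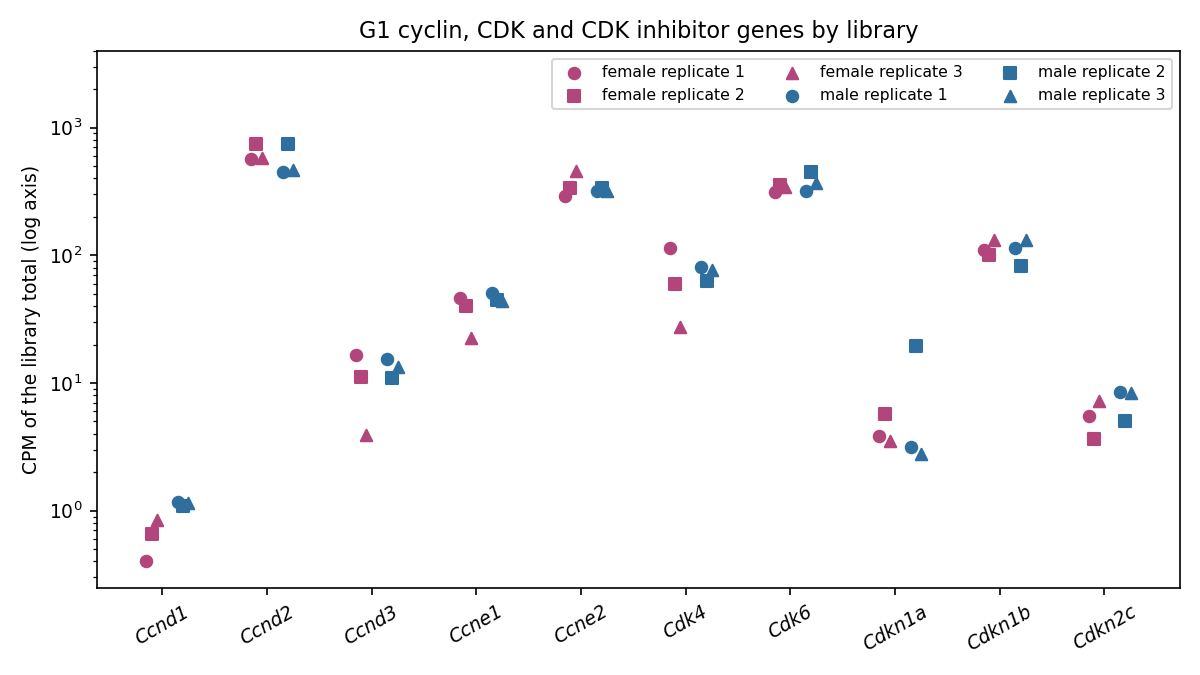
Level of each of the 10 genes in each library, in CPM of the library total on a log axis, with females in pink and males in blue and the replicate number given by the marker shape. Ccnd2, Ccne2 and Cdk6 lay between 291 and 742 CPM in all 6 libraries, Ccnd1 at 0.405 to 1.16 CPM, and male replicate 2 stood above the other 5 libraries in Cdkn1a at 19.6 CPM.

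The G1 cyclins with the highest deposited values were Ccnd2 and Ccne2, and no member's difference between the sexes passed the test. In edgeR's quasi-likelihood test with Benjamini-Hochberg adjustment over all tested genes, 0 of 10 members passed a false discovery rate (FDR) of 0.05, against 7 of 12172 genes (0.0575%) in all, 3 higher in females (0.0246%) and 4 higher in males (0.0329%). Before adjustment, 0 of 10 members and 352 of all tested genes had p below 0.05. DESeq2 called 35 genes (0.288%) and again 0 members. Of the 10 members, 3 had a positive log2 fold change (female over male), Ccnd2, Ccne2 and Cdkn1b, and 7 a negative one, with a median of -0.16 against 0.00 for all tested genes. The same 3 genes were positive with DESeq2 size factors, with upper-quartile factors and with library totals only, the last of which moved the median of all genes to -0.12. The smallest adjusted p of any member in any fit was 0.0564, for Ccnd2 with limma-voom and sample quality weights, a fit that called 1.88% of all genes.

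Among the D cyclins, Ccnd2 had the highest deposited value in every mouse. In RefSeq on GRCm38.p6, Ccnd2 lies at chr6:127125162-127152188, Ccnd3 at chr17:47505051-47599689 and Ccnd1 at chr7:144929931-144939831. Ccnd2, the D cyclin induced by antigen receptor and growth signals in B cells, had 564, 742 and 583 CPM in female replicates 1 to 3 and 450, 740 and 463 CPM in male replicates 1 to 3. One library of each sex, female replicate 2 and male replicate 2, lay near 740 CPM and the other 4 between 450 and 583 CPM, so the groups overlapped. The log2 fold change was 0.34 ± 0.24 (SE, n = 3 per sex; 95% interval -0.22 to 0.89; edgeR adjusted p = 0.999). Without male replicate 2 it was 0.61.

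Ccnd3, the D cyclin needed for germinal centre and pre-B cell expansion, had 16.4, 11.2 and 3.90 CPM in the females and 15.5, 10.9 and 13.4 CPM in males. Female replicate 3 was the lowest library and female replicate 1 the highest, with all males between them. The log2 fold change was -0.27 ± 0.41 (95% interval -1.22 to 0.68, edgeR adjusted p = 0.999), and without female replicate 3 it was 0.066.

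Ccnd1, the D cyclin typical of epithelial and other non-lymphoid cells, was at 0.405, 0.655 and 0.851 CPM in the females and 1.16, 1.081 and 1.14 CPM in males. Every male was above every female on this scale, from 9.8 to 30.3 estimated counts per female library and 29.6 to 37.9 per male library. It was the 1 of 10 members without overlap between the sexes, against 10.2% of all tested genes, 7.55% with males higher and 2.69% with females higher. With TMM factors female replicate 3 (1.04 CPM) lay above male replicate 2 (1.03 CPM), so that 0 of 10 members, against 9.01% of all tested genes, were without overlap on that scale. The fitted log2 fold change was -0.65 ± 0.46 (95% interval -1.72 to 0.43, edgeR adjusted p = 0.999).

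Levels of different genes are compared as CPM per kb of the longest transcript in GENCODE M21. On this scale Ccnd2 made up 94.3 to 98.7% of the summed D cyclin level, Ccnd3 1.083 to 5.33% and Ccnd1 0.116 to 0.411%. The longest Ccnd3 transcript is annotated as a retained intron of 3858 bases. With the longest coding transcript, of 2113 bases, the share of Ccnd3 was 1.96 to 9.32% and that of Ccnd2 90.3 to 97.8%. The ratio of Ccnd2 to Ccnd3 per kb was 20.9, 40.3 and 91.1 in females and 17.7, 41.4 and 21.1 in males. On the log2 scale its mean was 5.41 ± 1.06 (SD, n = 3) in females and 4.64 ± 0.65 in males, a difference of 0.77 that the exact permutation test did not call (p = 0.5, adjusted p = 0.9 over 5 ratios). It was 0.22 without female replicate 3 and 1.28 without female replicate 1. With 3 against 3 mice this test cannot give a p below 0.1. The GC content of the longest transcript was 47.1% for Ccnd2, 50.9% for Ccnd1 and 56.7% for Ccnd3. The D cyclin with the lowest GC content thus had the highest share, but Ccnd1, with less GC than Ccnd3, had the lowest.

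**Figure D2:**
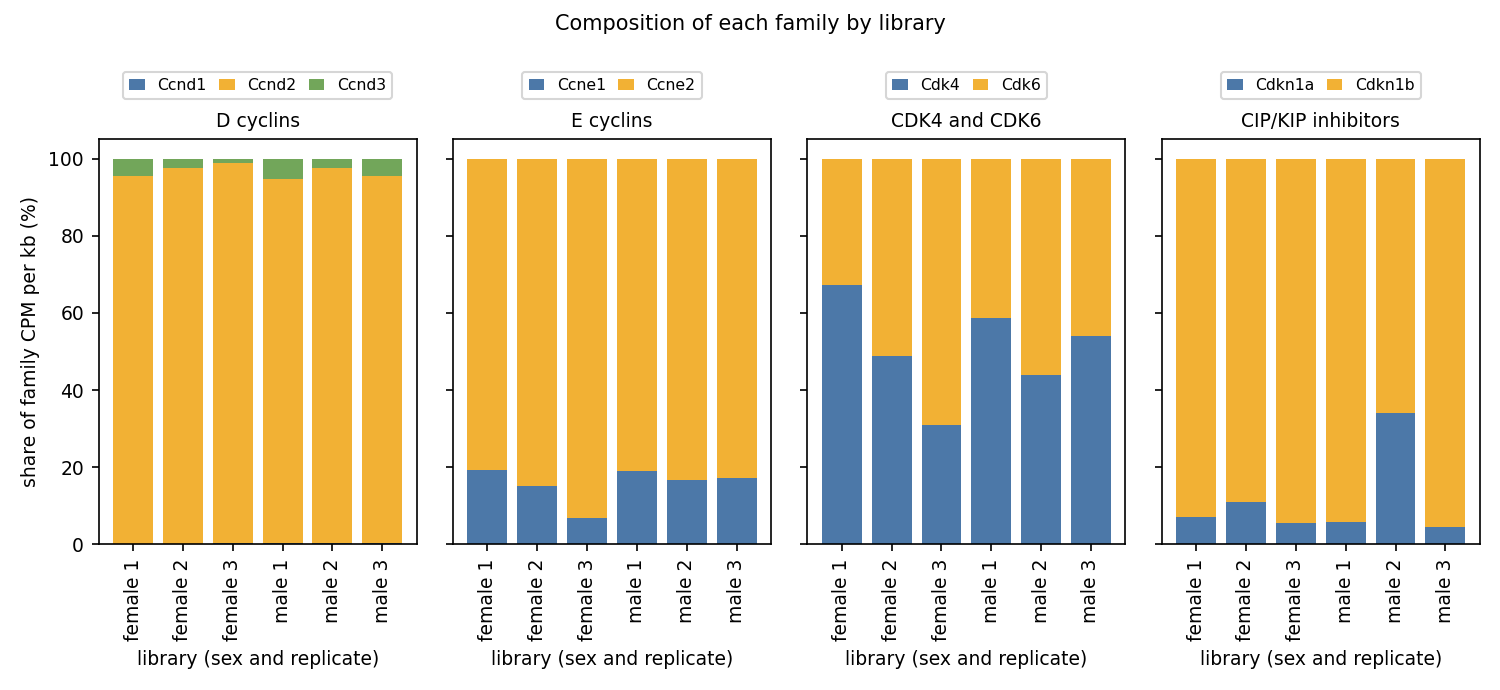
Share of each gene in the summed CPM per kb of its family (percent, bars stacked to the whole), 1 bar per library. Ccnd2 held at least 94.3% of the D cyclins and Ccne2 at least 80.6% of the E cyclins in all libraries, while Cdk4 ranged from 30.9 to 67.3% and Cdkn1a reached 34.02% in male replicate 2 only.

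The E cyclins, Ccne2 at chr4:11190433-11204779 and Ccne1 at chr7:38097984-38107490, went apart within female replicate 3. Ccne2, the E cyclin with the higher deposited value and, at 36.3% GC against 52.7% for Ccne1, the lower GC content, had 291, 339 and 461 CPM in the females and 321, 339 and 318 CPM in males. The males lay close together, at 318 to 339 CPM, inside the female range, whose top was female replicate 3. Its log2 fold change was 0.34 ± 0.26 (95% interval -0.27 to 0.94, edgeR adjusted p = 0.999), and without female replicate 3 it was -0.025.

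Ccne1 had 46.6, 39.96 and 22.4 CPM in the females and 50.2, 45.05 and 44.1 CPM in males. Here female replicate 3 was the lowest library, and female replicate 1 lay within the male range. The log2 fold change was -0.26 ± 0.20 (95% interval -0.73 to 0.22, edgeR adjusted p = 0.999). It was -0.088 without female replicate 3 and -0.044 after correction of each library for transcript length and GC content. Per kb, Ccne1 made up 19.4, 15.1 and 6.80% of the E cyclin level in females and 19.0, 16.7 and 17.2% in males, so 5 of 6 libraries lay between 15.1 and 19.4%. The log2 ratio of Ccne1 to Ccne2 was -2.78 ± 0.89 (SD, n = 3) in females and -2.22 ± 0.12 in males (difference -0.55, exact permutation p = 0.5, adjusted p = 0.9). Without female replicate 3 the difference was -0.051. It was -0.15 after the length and GC correction.

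The balance between Cdk4 and Cdk6 varied from mouse to mouse, and which of them was higher per kb depended on the transcript length used. Cdk4 lies at chr10:127063535-127067288 and Cdk6 at chr5:3341004-3531008. Cdk6, the D cyclin partner prominent in blood cells, was the steadiest member, with 311, 353 and 344 CPM in the females and 321, 450 and 366 CPM in males. Its coefficient of variation over the 6 libraries was 13.9%, and only male replicate 2 was above 366 CPM. Between the sexes it differed by -0.022 ± 0.19 on the log2 scale (95% interval -0.47 to 0.43, edgeR adjusted p = 0.999).

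Cdk4 had 114, 60.1 and 27.3 CPM in the females and 81.1, 62.5 and 76.8 CPM in males. The females spanned the whole range, 4.17-fold from highest to lowest, and the males lay inside it. Its log2 fold change was -0.067 ± 0.37 (95% interval -0.94 to 0.80, edgeR adjusted p = 0.999), and without female replicate 3 it was 0.24. Myc, whose protein activates Cdk4 through E-boxes such as those printed above, had 45.8, 55.8 and 21.6 CPM in the females and 48.6, 55.5 and 43.9 CPM in males. Both genes, each at 53.3% GC, were lowest in female replicate 3, as were 51.4% of all tested genes. Myc was highest in female replicate 2 and Cdk4 in female replicate 1. A link between the 2 genes was not tested.

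The ratio of Cdk4 to Cdk6 per kb was 2.06, 0.957 and 0.446 in females and 1.42, 0.780 and 1.18 in males. Cdk4 thus exceeded Cdk6 in 3 of 6 libraries, both replicates 1 and male replicate 3, by the longest transcript. By the median length of all annotated transcripts the ratio was 0.126 to 0.581 and Cdk4 exceeded Cdk6 in 0 of 6. The log2 ratio differed by -0.19 between the sexes (mean -0.062 ± 1.10 in females and 0.13 ± 0.44 in males, SD, n = 3; exact permutation p = 0.8, adjusted p = 0.9). Without female replicate 3 the difference was 0.36, the other way.

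**Figure D3:**
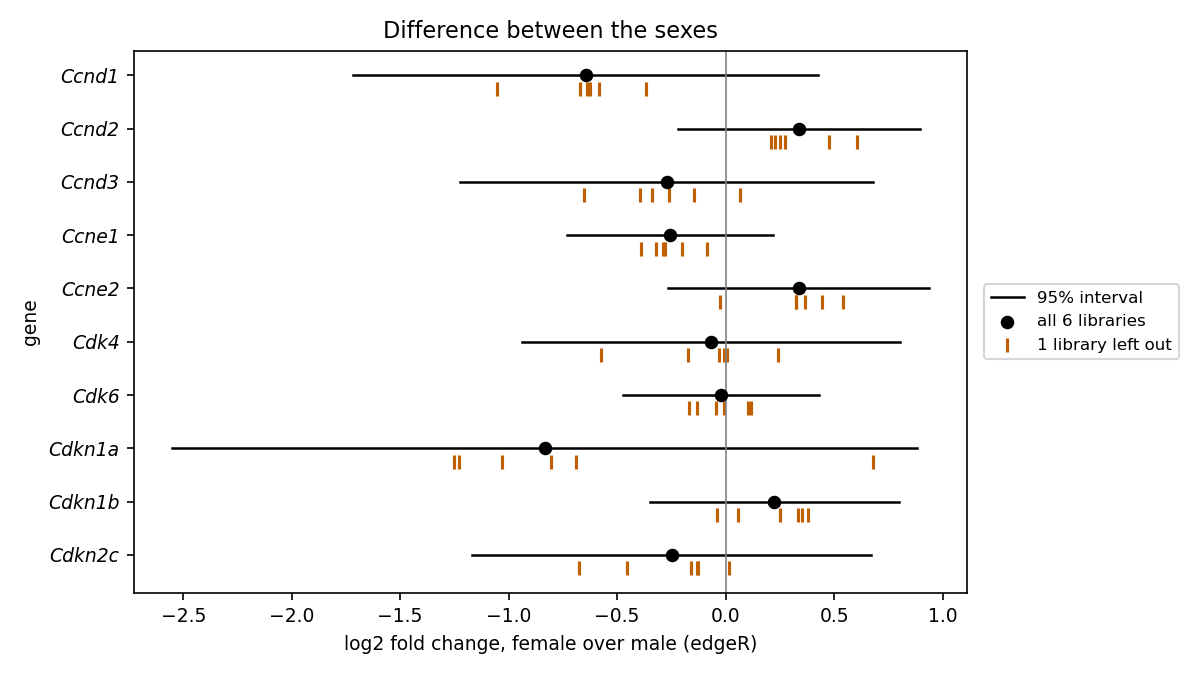
Log2 fold change, female over male, of each gene from edgeR with its 95% interval (black) and with each library left out in turn (orange ticks). All 10 intervals span 0, and the Cdkn1a value turned from -0.83 to 0.68 without male replicate 2.

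Among the inhibitors, Cdkn1b was the most abundant and steady, while Cdkn1a stood out in 1 mouse. Cdkn1a lies at chr17:29090979-29100722, Cdkn1b at chr6:134920401-134925525 and Cdkn2c at chr4:109660876-109666756. Cdkn1b, which keeps resting lymphocytes out of the cycle and is degraded as they enter it, had 109, 101 and 132 CPM in the females and 114, 83.1 and 131 CPM in males. Male replicate 2 was the lowest library, and the other 2 males lay within the female range. Its log2 fold change was 0.22 ± 0.25 (95% interval -0.35 to 0.80, edgeR adjusted p = 0.999), and it was -0.040 without female replicate 3.

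Cdkn1a had 3.84, 5.69 and 3.50 CPM in the females and 3.14, 19.6 and 2.79 CPM in males. Male replicate 2, with 536.5 estimated counts, was 5.16-fold above the mean of the other 5 libraries, which lay between 2.79 and 5.69 CPM, and the other 2 males were the lowest libraries of all. The log2 fold change was -0.83 ± 0.74 (95% interval -2.55 to 0.88, edgeR adjusted p = 0.999). Without male replicate 2 it was 0.68 with an edgeR adjusted p of 1.00, so 1 library set its direction.

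The ratio of Cdkn1a to Cdkn1b per kb was 0.516 in male replicate 2 and 0.0465 to 0.123 in the other 5 libraries. The mean log2 ratio was -3.61 ± 0.55 (SD, n = 3) in females and -3.15 ± 1.91 in males, a difference of -0.47 (exact permutation p = 0.9, adjusted p = 0.9), or 0.63 without male replicate 2. The genes of the list of p53 and its targets were set beside Cdkn1a after this library was seen. Of the 13 tested, 6 were highest in male replicate 2 (Mdm2, Gadd45a, Zmat3, Trp53inp1, Aen and Polk), against 23.8% of all tested genes, and none was lowest in it, against 13.3%. Trp53inp1, a p53 target that promotes arrest and death, had 165 CPM in male replicate 2 and 57.4 to 94.9 CPM in the other libraries. Zmat3, an RNA-binding p53 target, had 42.1 CPM against 17.5 to 26.9 CPM. Others stood less far above the rest: Mdm2, the ligase that degrades p53, had 121 CPM against 91.8 to 115 CPM, and Polk 39.3 CPM against 33.4 to 36.3 CPM. Trp53 itself, at 24.3 CPM, lay inside the range of the others (5.59 to 31.6 CPM), and Fas, another target, was lower in male replicate 2 (7.03 CPM) than in 4 of the other 5.

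**Figure D4:**
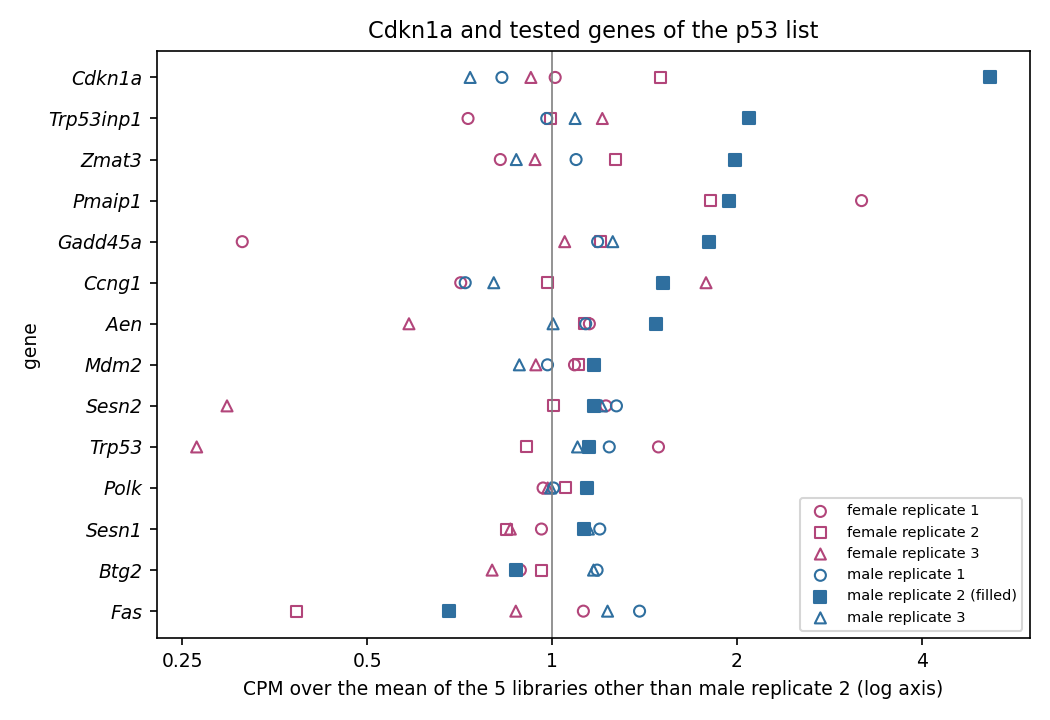
CPM of Cdkn1a and of the 13 tested genes of the p53 list in each library, divided by the gene's mean over the 5 libraries other than male replicate 2 (log axis), with male replicate 2 filled. Cdkn1a reached 5.16 and Trp53inp1 2.09 in male replicate 2, while Fas was at 0.679; the 3 libraries with Pmaip1 at 0 are not drawn.

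Other genes of the G1 lists that stood at an end of the range in male replicate 2 are named here after their values were seen. Rbl1, a member of the Rb family that is itself an E2F target, had 262, 230 and 278 CPM in the females and 238, 124 and 266 CPM in males, so male replicate 2 was lowest (log2 fold change 0.45 ± 0.30, edgeR adjusted p = 0.999). Ccna2, the S phase cyclin, had 237 CPM in male replicate 2 and 373 to 852 CPM in the others. Skp2, which marks Cdkn1b for degradation, had 31.6 CPM there and 49.1 to 61.8 CPM in the others. Rb1, at 405 CPM, was highest in it, against 316 to 369 CPM. In the mitosis list, levels in it ran from 0.565 (Birc5) to 0.864 (Cdk1) times the mean of the other 5 libraries. Of these 12 genes 0 were highest in it and 3 lowest. Such levels were not particular to this library. Female replicate 2 was lower still in Mki67 (798 against 877 CPM), Top2a, Ccnb2, Cdk1, Aurka, Bub1, Cdc20 and Foxm1. It was higher than male replicate 2 in Ccnb1, Plk1, Aurkb and Birc5 (53.3 against 42.3 CPM). The share of all tested genes below the mean of the other 5 libraries was not counted. For the lists that follow, only genes highest and lowest in male replicate 2 were counted, which does not measure direction. Of 11 tested Rb and E2F genes 4 were highest in it and 1 lowest, of 9 other G1 kinase genes 2 and 2, of 12 turnover genes 3 and 3, and of 20 E2F targets 4 and 1, against 23.8% of all tested genes highest and 13.3% lowest.

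Cdkn2c had 5.50, 3.65 and 7.20 CPM in the females and 8.53, 5.04 and 8.38 CPM in males. On this scale the males of replicates 1 and 3 lay above all females, and male replicate 2 lay among the females. With TMM factors female replicate 3 (8.82 CPM) lay above male replicates 1 (8.10 CPM) and 3 (8.03 CPM). On the log2 scale females differed from males by -0.25 ± 0.40 (95% interval -1.17 to 0.67, edgeR adjusted p = 0.999), and this was 0.017 without female replicate 2, -0.68 without female replicate 3 and 0.31 after the length and GC correction, or -0.055 with the replicate number as a block as well. Per kb, Cdkn2c, at 58.0% GC, was below the kinases it binds, at 0.0247 to 0.0675 of the summed level of Cdk4 and Cdk6. The mean log2 of this ratio was -4.81 ± 0.80 (SD, n = 3) in females and -4.58 ± 0.45 in males (difference -0.24, exact permutation p = 0.8, adjusted p = 0.9).

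Ordered by mean CPM per kb over the 6 libraries, the members ran Ccne2 (115 ± 19.7, SD, n = 6), Ccnd2 (93.3 ± 20.2), Cdk4 (34.2 ± 13.9), Cdk6 (31.0 ± 4.30), Cdkn1b (24.6 ± 4.08), Ccne1 (20.7 ± 4.95), Cdkn1a (3.09 ± 3.14), Ccnd3 (3.08 ± 1.17), Cdkn2c (2.58 ± 0.795) and Ccnd1 (0.236 ± 0.0815). Between neighbours, the lower gene lay below the upper one in all 6 libraries at 4 steps: Ccnd2 to Cdk4, Cdk6 to Cdkn1b, Ccne1 to Cdkn1a and Cdkn2c to Ccnd1. At the other steps the order was not the same in all libraries: Ccnd2 was below Ccne2 in 4 of 6, Cdk6 below Cdk4 in 3, Ccne1 below Cdkn1b in 4, Ccnd3 below Cdkn1a in 2 and Cdkn2c below Ccnd3 in 5. GC content differed along this order, from 36.3% in Ccne2 to 58.0% in Cdkn2c, and the order depends on the length used: with the longest coding transcript Ccnd3 had 5.63 CPM per kb, above Cdkn1a, and with the median length of all annotated transcripts Ccnd2 (733 CPM per kb) passed Ccne2 (645), Cdk6 (244) passed Cdk4 (76.0) and Ccne1 (65.9) passed Cdkn1b (46.7).

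In female replicate 3 some members stood far from the other libraries and others did not. The difference in log2 CPM between it and the average of the remaining 5 was -1.77 for Ccnd3, -1.49 for Cdk4 and -1.01 for Ccne1, at 56.7, 53.3 and 52.7% GC. It was 0.52 for Ccne2, at 36.3% GC, and 0.31 for Cdkn1b, at 43.1% GC. All tested genes with a count in every library moved with GC in this library. Their median difference was 0.27 below 40% GC (986 genes), -0.0012 from 40 to 45% and -0.35 from 45 to 50%. It was -0.85 from 50 to 55% (2866 genes) and -1.41 from 55% upwards (1690 genes). Cdkn2c, with 58.0% GC and a difference of 0.28, lay above the upper quartile of its GC range (-0.69). So did Ccnd1, with 50.9% GC and 0.046 (upper quartile -0.37), and Cdkn1b (upper quartile 0.255). Ccnd2, with 47.1% GC and 0.011, lay just above its upper quartile of 0.0069. For Cdkn1a, at 54.4% GC, the difference was -0.57 and for Cdk6, at 45.1%, -0.054. Of the 10 members, 3 were lowest in female replicate 3, against 51.4% of all tested genes, and 2 were highest in it, against 13.8%. The part of base composition in the values of single genes was not tested beyond the fit corrected for length and GC content.

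**Figure D5:**
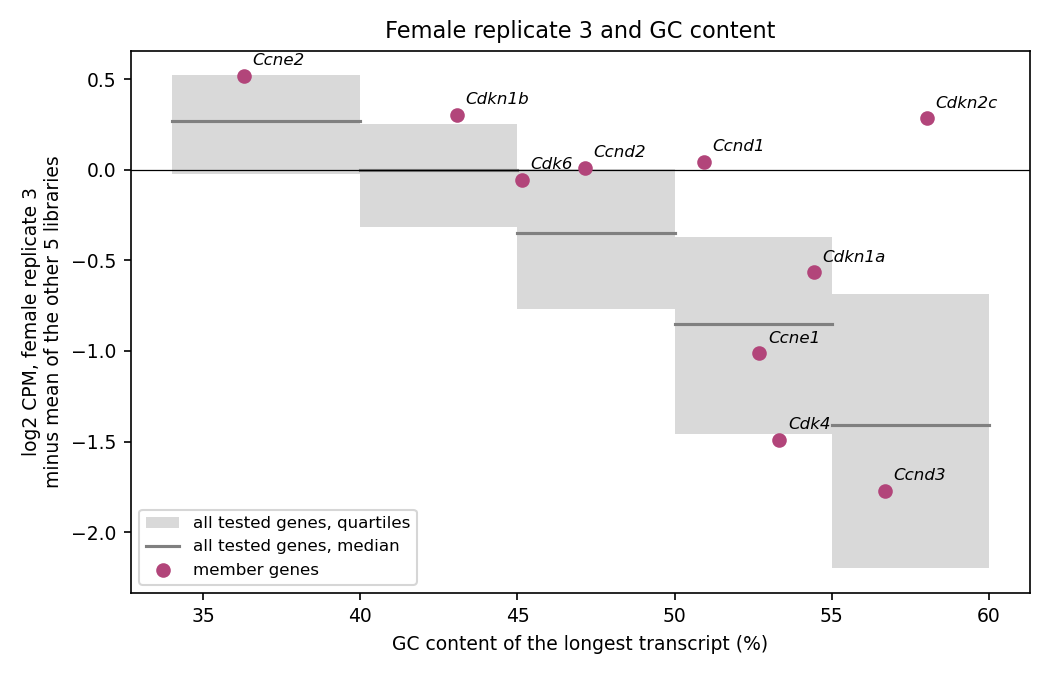
Log2 CPM of female replicate 3 minus the mean of the other 5 libraries, against the GC content of the longest transcript (percent), for the 10 genes (pink), with the median and quartiles of all tested genes in 5 GC ranges (grey; the outer ranges hold all genes below 40% and from 55% upwards). Ccnd3, Cdk4 and Ccne1 lie at -1.77 to -1.01 and Cdkn2c, the member richest in GC, at 0.28.

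The other genes of the pathway gave no call between the sexes: in 8 lists, 0 genes passed an FDR of 0.05 in either direction with edgeR, against 0.0575% of all tested genes. Of the Rb and E2F list, 11 of 13 genes were tested, with 7 positive and a median log2 fold change of 0.077. Without female replicate 3 the median was -0.057 with 5 positive, and with library totals only it was -0.094. Tfdp1, an E2F partner, was listed at 0 in all 6 libraries. Besides Rbl1 its smallest p was that of E2f7, an E2F repressor, with 16.8 ± 1.19 CPM in the females and 16.4 ± 2.80 CPM in males (mean ± SD, n = 3, as for the genes below). Of the other G1 kinase genes, 9 of 11 were tested, with 4 positive and a median of -0.0046. Their smallest p values belonged to INK4 inhibitors: Cdkn2b had 0.490 ± 0.424 CPM in the females and 1.24 ± 0.505 CPM in males, and Cdkn2d, which encodes p19, had 3.01 ± 1.42 and 5.10 ± 1.54 CPM. Cdk2, the partner of the E cyclins, had 61.1, 44.9 and 31.2 CPM in the females and 61.7, 55.7 and 55.1 CPM in males.

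The list on turnover of G1 regulators had 12 tested genes, 8 positive, and a median of 0.12, which was -0.015 with 5 positive without female replicate 3 and -0.043 with library totals only. In it Skp2 had 54.7 ± 6.48 CPM in the females and 47.0 ± 13.4 CPM in males, and the ubiquitin ligase scaffold Cul4b 488 ± 56.2 and 479 ± 53.005 CPM. The list of inputs to D cyclins and inhibitors had 12 tested genes, 5 positive, and a median of -0.090. Foxo3, whose protein induces Cdkn1b in resting cells, had 30.4 ± 6.59 CPM in the females and 38.8 ± 2.40 CPM in males, and Zbtb17, the Myc partner that represses Cdkn1a with it, only 0.169 ± 0.192 and 0.609 ± 0.381 CPM. The p53 list had 13 tested genes, 4 positive, and a median of -0.23. With 1 library left out this median ran from -0.24 to -0.063, the latter without male replicate 2. Sesn1, a stress-induced p53 target, had 34.6 ± 2.53 CPM in the females and 45.1 ± 1.40 CPM in males without overlap (edgeR adjusted p = 0.999), and Mdm2 108 ± 9.35 and 105 ± 15.1 CPM.

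Downstream of G1, 9 of 20 E2F targets of S phase entry were positive, with a median of -0.021, and 18 of 20 were lowest in female replicate 3, against 51.4% of all tested genes. Without that library 14 of 20 were positive, with a median of 0.047. Slbp, the histone mRNA binding protein gene, had 570 ± 42.6 CPM in the females and 542 ± 46.2 CPM in males, and Mcm5, of the replicative helicase, 32.1 ± 16.1 and 42.8 ± 6.05 CPM. Of 12 mitosis genes 5 were positive, with a median of -0.10. With 1 library left out this median ran from -0.37 (without male replicate 2) to 0.11 (without female replicate 2). Ccnb1 had 209 ± 64.5 CPM in the females and 180 ± 49.8 CPM in males, while Cdk1 had 84.7 ± 35.7 and 108 ± 20.1 CPM. Of 11 genes of quiescence 4 were positive, with a median of -0.13. That median was 0.0056 after the length and GC correction. Without female replicate 3 the medians were -0.11 for the other G1 kinase genes, -0.027 for the inputs and -0.036 for mitosis. Lin54 and Lin52, of the DREAM complex that represses cell cycle genes in resting cells, had 114 ± 22.3 and 33.3 ± 1.53 CPM in the females and 82.6 ± 21.1 and 30.5 ± 1.46 CPM in males.

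For each member the tested gene with the most similar profile was sought among about 6263 genes with a mean of at least 10 CPM, as the smallest root mean square difference of centred log2 CPM over the 6 libraries. The closest match was Ccp110 to Ccne2, at 0.0266, with 127, 147 and 202 CPM in the females and 143, 153 and 135 CPM in males. Bloc1s2 was closest to Ccne1 (0.0279), Plcxd2 to Cdk6 (0.0360), Hmox2 to Ccnd3 (0.0410), Ppp6r1 to Cdk4 (0.0497), Phyh to Cdkn1b (0.0586), Usp31 to Ccnd2 (0.0919), Cdc14b to Cdkn2c (0.152) and Ubp1 to Ccnd1 (0.213). The gene closest to Cdkn1a was Slc39a10, a zinc transporter gene, at 0.198. It had 87.1, 125 and 104 CPM in the females and 90.4, 451 and 84.8 CPM in males. That it was highest in male replicate 2 follows from its choice by nearness to Cdkn1a. With 6 libraries, such nearness describes these libraries only.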

How the data were processed

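The tools kallisto and DESeq2 and the genome build GRCm38.p6 are named per the submitters' processing notes, while their versions, the annotation and the settings are not given there. The deposited values are estimated counts per gene symbol, 1 column per mouse, not scaled across libraries, and totals ran from 24089561 to 35659883. They were rounded for the count tests. The members, lists and tests were chosen with earlier results of these data known. The sex difference came from edgeR 4.0.16 under R 4.3.3: filterByExpr, TMM factors, then glmQLFit and glmQLFTest on a design holding sex alone. Adjustment was by Benjamini-Hochberg over 12172 genes. The SE is the log2 fold change divided by the root of F, and the 95% interval uses the fit's degrees of freedom. The biological coefficient of variation was 0.351. Within-family ratios were compared by an exact 2-sided permutation test. Lists were described by counts, and named were the 2 genes of each list with the smallest p and all 10 members; other list genes were chosen after their values were seen. Transcript length and GC content came from GENCODE M21 (98.8% of tested genes), coordinates and promoters from RefSeq. Alternatives were DESeq2 1.42.0, limma 3.58.1 (voom, with and without sample weights), other scaling factors, other filters, the replicate number as a block, removal of a length and GC trend per library (splines of 4 degrees of freedom) and leaving out each library. The longest coding transcript and the block with the trend removed were added after seeing the data. The fit was tested on simulated data. Detection floors cover counting error only. Each library was 1 mouse, so replicate spread holds differences between animals together with those of cell selection, culture and library preparation. These cannot be told apart here. Figures were drawn with matplotlib 3.10.9.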

Additional observations from a re-analysis of the deposited data

How the results depend on the processing

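The counts of genes past the threshold were 3 higher in females and 4 higher in males. They were 24 and 11 with DESeq2, 87 and 142 with limma-voom and sample quality weights, and for females 5 with no filter and 6 after correction for length and GC content. With 1 library left out they ran from 2 to 6 and from 1 to 6. No member passed in any of the 17 alternatives. The log2 fold change changed sign under that correction for Cdk4 (0.054, and 0.031 with the block as well) and Cdkn2c (0.31, but -0.055 with the block), and with sample quality weights for Cdk6 (0.041), Cdkn1a (0.71) and Cdkn1b (-0.14). With 1 library left out the ranges that crossed 0 were -0.65 to 0.066 for Ccnd3, -0.025 to 0.54 for Ccne2, -0.58 to 0.24 for Cdk4, -0.17 to 0.12 for Cdk6, -1.25 to 0.68 for Cdkn1a, -0.040 to 0.38 for Cdkn1b and -0.68 to 0.017 for Cdkn2c; those of Ccnd1, Ccnd2 and Ccne1 did not. The log2 ratio differences turned under the correction for Cdk4 to Cdk6 (0.19) and Cdkn2c to both kinases (0.011). With 1 library left out they ran from -0.74 to 0.36 for Cdk4 to Cdk6, -1.11 to 0.63 for Cdkn1a to Cdkn1b and -0.70 to 0.026 for Cdkn2c to both kinases. The cause of these changes was not tested. Libraries with the same replicate number deviated together with r of 0.22, 0.04 and 0.07, and those with unlike numbers with r of -0.21 to 0.12. With 3 libraries per sex these values cannot settle whether the numbers pair the mice. With the replicate block 3 genes were higher in females and 4 in males, and Ccnd2 had 0.36 (edgeR adjusted p = 0.956). The ratio tests over 3 pairs cannot give a p below 0.25. The few counts of Ccnd1 limit its precision.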
